A study of Homo sapiens with 6 samples.

Results

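The axon guidance ligands and receptors were examined in labeled RNA of melanoma cells that express PRL3. The question was whether the higher exon counts of SLIT2 were shared by its family and by the other guidance genes. SLIT2 itself was selected on its rise between the groups compared here, so its values are given as a description without a test. The other genes were taken by symbol, under a rule set with earlier results of these data known. They were the protein-coding genes whose symbols begin with SEMA, PLXN, SLIT, ROBO, EPHA, EPHB, EFNA, EFNB, UNC5 or NTN. NRP1, NRP2 and DCC were added and the SLITRK genes left out. This gave 74 genes of 58243 gene identifiers, of which 68 passed the filter on low counts among 23884 genes tested. The letters of the rule also took in UNC50, which is not a guidance receptor, the UNC5-related gene UNC5CL, and the readthrough gene EFNA4-EFNA3, which had no count in any library.

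The data were 6 libraries of 4sU-seq from A375, a human melanoma cell line. EV cells were stably transfected with an empty vector (libraries B1, B2 and B3), and PRL3 cells were stably transfected with a plasmid for human PRL3 that carries an HA tag (libraries B9, B10 and B11). Both were kept in 100 µg/ml hygromycin B and labeled with 500 µM 4-thiouridine for 20 min, after which the labeled RNA was pulled down, to enrich RNA made during the pulse. The sources used here do not say whether each line is a clone or a pool, nor whether the libraries of a group came from separate cultures, so p-values measure only the spread between libraries. PRL3 is a phosphatase of the PRL family, encoded by PTP4A3.

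Guidance genes encode cues that attract or repel a growing axon and the receptors that read them. Slits are secreted repellents bound by ROBO receptors. Netrins attract through DCC and repel through UNC5 receptors. Semaphorins signal through plexins, and most of the secreted class 3 semaphorins also need neuropilins. Ephrins are ligands fixed to the cell surface that are bound by Eph receptor tyrosine kinases, with signals running into both cells. Outside the nervous system the same families act in vessels, in the migration of neural crest cells and in tumors, and melanocytes descend from the neural crest.

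Levels are given as normalized counts, which are read counts rescaled to a common effective library size. Reads on exons were counted here, whereas the study turned to intronic reads to limit effects of splicing and of carried-over mRNA. The libraries held 36532207 to 57952035 reads on genes. Reads on the 74 genes were 0.195% to 0.221% of these in EV and 0.264% to 0.285% in PRL3. The transfected gene matched the labels, with 217 ± 59.4 normalized counts (SD, n = 3) of PTP4A3 in EV and 24387 ± 3796 in PRL3. On no annotated exon of their strand lay 28.7% to 41.1% of the uniquely aligned reads in EV and 62.8% to 69.1% in PRL3. The part this played in the changes below was not tested. Of 20 melanoma markers, SOX10, VIM, AXL and CSPG4 were abundant in every library, whereas MLANA and TYR had at most 2.06 normalized counts. Of the 16 tested, 3 were higher and 9 lower in PRL3. Beside these and the marker counts that follow, 15.2% of protein-coding genes tested were higher and 31.6% lower. In the third of them with the highest level, 48.4% were lower. The summed levels of the melanoma markers were 248120 to 291206 in EV and 147251 to 172879 in PRL3. Most of this was VIM, with means of 164296 in EV and 87413 in PRL3. Among 16 neuron markers, STMN2, NEFH and SLC17A6 had no count, and of the 8 tested TUBB3 and GAD1 were higher and NEFL lower (summed levels 3697 to 3954 in EV and 3421 to 4087 in PRL3). Of 10 fibroblast markers, all tested, COL1A2 was lower (summed levels 1119 to 1316 in EV and 885 to 932 in PRL3). Of 10 epithelial markers 6 were tested, and KRT8, KRT14, KRT18 and CLDN4 were lower (summed levels 39123 to 50627 in EV and 12339 to 17039 in PRL3).

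The rise was not general to the guidance genes. Apart from SLIT2, 15 of 67 tested members rose in PRL3 cells and 19 fell, and 33 did not pass (edgeR's quasi-likelihood test, threshold 0.05 on the p adjusted by Benjamini-Hochberg over all genes tested). Among all genes tested 20% were higher and 22.7% lower, and among the 14443 protein-coding genes 15.2% were higher and 31.6% lower. The members thus gave 22.4% higher and 28.4% lower, and their median log2 fold change without SLIT2 was -0.21, beside -0.15 over protein-coding genes and 0.11 over all genes. Every PRL3 library lay above every EV library in 18 members, SLIT2 included, and below in 20, which is 26.5% and 29.4% of the 68 tested; over protein-coding genes these shares were 22.2% and 36.7%. The split depended on the scaling. With SLIT2 included, 16 members were higher and 19 lower (45.7% of the calls higher), against 22 and 8 (73.3%) with library size alone and 6 and 30 (16.7%) with all uniquely aligned reads as the library size. These scalings set the median of all genes at 0.60 and -0.36, in place of 0.11. None of these higher and lower calls turned to the opposite direction in any of 16 other fits. Those fits changed the scaling, the tool, the filter or the gene set, left out 1 library, or removed a trend of fold change with gene span. ROBO1, which did not pass here, was called higher with library size alone and lower with the span trend removed. In all 16, SEMA5A, EPHB1, NRP2, SEMA4D and NTNG1 were called higher, and SEMA3B, SEMA6B, EFNB3, PLXNB1, PLXNB2, PLXNB3, EPHB4 and UNC5D lower. The other calls depended on scaling: SLIT3, EFNA5, EFNB2, EPHA4, EPHA7, PLXNA2, PLXNA4, ROBO4, SEMA6A and UNC5C were not called higher with all uniquely aligned reads as library size, and EFNA1, EFNA3, EFNA4, EPHB3, NTN1, PLXNA1, PLXNA3, ROBO3, SEMA4B, SEMA4C and SEMA7A were not called lower with library size alone. In these bulk libraries, fewer cells that transcribe a gene and less RNA per cell cannot be told apart.

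**Figure D1:**
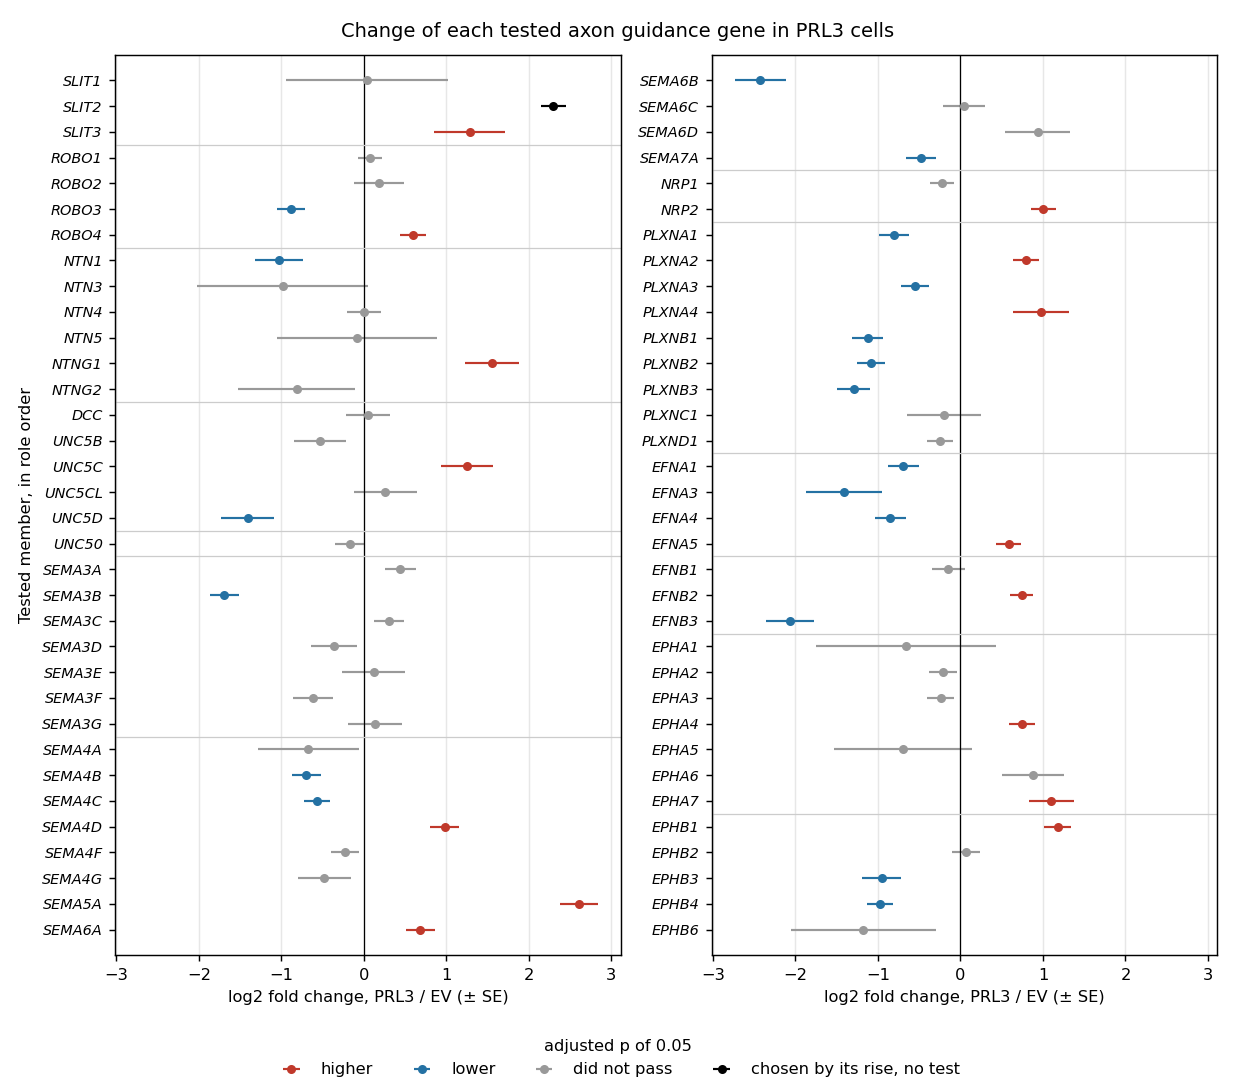
The log2 fold change of PRL3 over EV (horizontal axis) for each of the 68 tested members in role order, with gray lines between roles and bars of 1 SE. Red and blue points passed an adjusted p of 0.05, and gray ones did not. SLIT2 (black) was chosen by its rise, so its bar is not to be read as a test. Almost every role holds points on both sides of 0, with SEMA5A at 2.60 and SEMA6B at -2.43 as the extremes.

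SLIT2 lies on chr4:20251905-20620561 of GRCh38, plus strand. It had 839, 759 and 773 normalized counts in the EV libraries and 3589, 4153 and 3912 in the PRL3 libraries, from 631 to 850 reads and 3486 to 5581 reads. The PRL3 libraries were all above the EV libraries, with means of 790.4 ± 42.7 and 3885 ± 283 (SD, n = 3), a log2 fold change of 2.30 or 4.91-fold. Over the 16 other fits the log2 fold change was between 1.82 and 2.79. Among the 14443 protein-coding genes this ranked 120th. Of its paralogs, SLIT3 (chr5:168661740-169301139, minus strand) had 63.3, 42.1 and 23.6 normalized counts in EV and 100.9, 97.5 and 115 in PRL3. The groups did not overlap, and SLIT3 rose by 1.28 on the log2 scale (SE 0.43, adjusted p = 0.0282). This call rests on a low level: it was lost without PRL3 replicate B9, B10 or B11 (adjusted p = 0.0745, 0.074 and 0.108), and with the trend of fold change with gene span removed (log2 fold change 0.77, adjusted p = 0.176). SLIT1 (chr10:96998038-97185959, minus strand) had 0, 15.6 and 62.7 normalized counts in EV and 31.9, 33.5 and 16.1 in PRL3. The SLIT1 libraries overlapped, and the difference of 0.04 (SE 0.99, adjusted p = 0.979) changed sign with the library left out, from -0.52 without EV replicate B1 to 1.76 without EV replicate B3. SLIT1 shares exons with the readthrough gene ARHGAP19-SLIT1 on the same strand, where the counter sets reads aside as ambiguous. Per kb of exon the slit levels in EV were 71.4 for SLIT2, 3.02 for SLIT3 and 2.86 for SLIT1, with reads shared with the readthrough gene missing from the SLIT1 value.

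SLIT2 and SLIT3 each hold a gene for the microRNA miR-218 within them, on the same strand, which is why their sequences are shown. Both hairpins give the same 5p strand and differ in the 3p strand; capitals mark the seed, bases 2 to 8 (RefSeq, GRCh38.p14).
hsa-miR-218-5p: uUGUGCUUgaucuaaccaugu
hsa-miR-218-1-3p, from the SLIT2 gene: aUGGUUCCgucaagcaccaugg
hsa-miR-218-2-3p, from the SLIT3 gene: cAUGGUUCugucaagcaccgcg
Reads were assigned to MIR218-1 (chr4:20528275-20528384, plus strand) 0, 0 and 0 times in EV and 29, 29 and 29 times in PRL3. With 3 counts over the group as the floor, this was at least 24.6-fold higher. These reads cover the 110-base hairpin gene and do not tell the SLIT2 primary transcript from the miRNA precursor; the mature miRNA was not measured. SLIT2-IT1, a noncoding RNA also inside SLIT2 (chr4:20392154-20394856), had 23, 2 and 18 reads in EV and 77, 64 and 75 in PRL3. Both genes showed the direction of the SLIT2 exons from other stretches of the same locus. They may share its transcription, which was not tested, so they are no independent support. Nor was the direction particular to SLIT2, as 20% of all genes tested were higher in PRL3. Of the 10 tested genes inside members on the same strand, these included, 9 had a log2 fold change above 0. The median over all genes tested was 0.11. MIR218-1, SLIT2-IT1 and RN7SL398P, the last inside NRP1, reached the count filter only through their PRL3 reads. The 9 of 10 are therefore no support for a shared rise. Reads on no annotated exon of their strand were also a larger share in PRL3, 62.8% to 69.1% against 28.7% to 41.1% in EV. What part this played in these counts was not tested. MIR218-2, inside SLIT3, had 2 reads in all.

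The promoters of SLIT2 and of SEMA5A, the member with the largest fold change, are shown for the 250 bases before the RefSeq start, in lower case and 5′ to 3′ on the strand of the gene. The letters TATAA, searched on both strands, are in capitals. The windows are chr4:20251655-20251904 (plus strand) and chr5:9546076-9546325 (minus strand) of GRCh38.p14.
SLIT2: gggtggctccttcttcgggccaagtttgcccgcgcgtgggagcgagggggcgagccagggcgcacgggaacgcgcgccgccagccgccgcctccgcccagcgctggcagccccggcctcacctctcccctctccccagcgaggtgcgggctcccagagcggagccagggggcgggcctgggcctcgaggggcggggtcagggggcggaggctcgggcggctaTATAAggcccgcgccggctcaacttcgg
SEMA5A: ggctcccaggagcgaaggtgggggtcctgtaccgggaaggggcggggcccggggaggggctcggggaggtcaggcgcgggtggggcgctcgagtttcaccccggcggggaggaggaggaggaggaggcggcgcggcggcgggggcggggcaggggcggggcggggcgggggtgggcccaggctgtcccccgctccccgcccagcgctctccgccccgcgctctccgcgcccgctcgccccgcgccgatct
SLIT2 holds TATAA once, with its first base 28 bases before the start, and SEMA5A has no match. The letters were found in 19.6% of 27305 promoters, and in 4 of the 63 members with a promoter in the table, SLIT2, ROBO4, EFNB2 and SEMA3G. The E-box letters CACGTG were found in 4 and CATGTG in 6 of the 63, against 6.49% and 9.54% of all promoters. Both windows are rich in G and C, with 77.2% and 82%; the median was 64.4% over the members and 58% over all promoters.

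The ROBO receptors moved in different directions. ROBO1 (chr3:78597239-79767998, minus strand), the slit receptor with the most signal per length in EV, had 3733, 3046 and 3081 normalized counts in EV and 3424, 3559.9 and 3417 in PRL3. The ROBO1 groups overlapped, with a log2 fold change of 0.08 (SE 0.15, adjusted p = 0.703). ROBO2 (chr3:75906695-77649964, plus strand) had 109.6, 135 and 203 in EV and 154, 188 and 167 in PRL3. Its groups overlapped too, with 0.18 on the log2 scale (SE 0.31, adjusted p = 0.661). Both values for ROBO1 and ROBO2 depended on scaling and on gene span, as ROBO1 was called higher with library size alone (0.57) and lower with the span trend removed (-0.56, adjusted p = 0.00869). ROBO3 and ROBO4 are neighbors on chromosome 11 and are transcribed towards each other. ROBO3 (chr11:124865432-124881471, plus strand), a divergent family member, had 938, 1078 and 950.2 in EV and 518, 563 and 521 in PRL3. It fell by 0.89 on the log2 scale (SE 0.17, adjusted p = 0.00102) without overlap of the groups, a call lost with library size alone (-0.40, adjusted p = 0.0757). ROBO4 (chr11:124883691-124898500, minus strand), known as the endothelial ROBO, had 1393, 1535 and 1684 in EV and 2254, 2537 and 2185 in PRL3. It rose by 0.60 (SE 0.15, adjusted p = 0.00676), again without overlap, except that the call was lost with all uniquely aligned reads as library size (0.12). No other endothelial marker was called higher: PECAM1, CDH5, CLDN5, ERG and EMCN had at most 18.3 normalized counts in any library, VWF, TEK and ESAM did not pass and TIE1 fell. The summed level of the 10 endothelial markers, ROBO4 included, was 2051 to 2770 in EV and 2881 to 3352 in PRL3. Most of this sum was ROBO4 itself, with 1393 to 1684 in EV and 2185 to 2537 in PRL3.

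**Figure D2:**
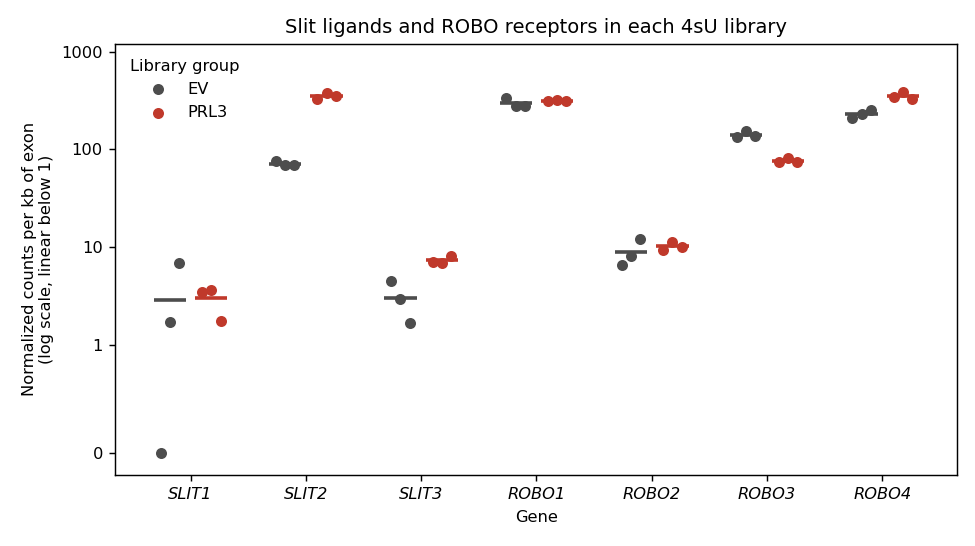
Normalized counts per kb of exon (vertical axis, log scale, linear below 1) of the slits and ROBO receptors in each EV (gray) and PRL3 (red) library, with lines at the means. SLIT2, SLIT3 and ROBO4 sit higher in all PRL3 libraries, ROBO3 sits lower, and SLIT1, ROBO1 and ROBO2 overlap.

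Of the 6 netrins, 1 rose and 1 fell, the latter not with library size alone (-0.54). NTNG1 encodes netrin-G1, which is tethered to the membrane and does not bind DCC. It had 93.8, 96.3 and 48.2 normalized counts in EV and 248, 198 and 249.8 in PRL3, all PRL3 libraries above EV. Its log2 fold change was 1.55 (SE 0.33, adjusted p = 0.00209). NTN1, the classical secreted netrin, fell by 1.03 (SE 0.29, adjusted p = 0.0114), with 235 to 399 normalized counts in EV and 111 to 169 in PRL3. The groups of NTN1 did not overlap, but the call was lost without EV replicate B2 (adjusted p = 0.0562) or PRL3 replicate B9 (adjusted p = 0.0642). NTN4 gave means of 435 in both groups (SD 62.2 and 34.1, n = 3), and NTN3, NTN5 and NTNG2, all at low levels, did not pass with -0.99, -0.08 and -0.82. Among the receptors, DCC had 152 to 201 in EV and 169.9 to 189 in PRL3, with overlap and a difference of 0.05 (SE 0.26). UNC5C rose from 107, 59 and 88.2 to 221, 205 and 180.1, without overlap, a log2 fold change of 1.25 (SE 0.31, adjusted p = 0.00599). UNC5D went the other way. It had 194, 196 and 166 in EV and 49.4, 78.9 and 80.4 in PRL3, and fell by 1.41 (SE 0.32, adjusted p = 0.00324). UNC5B and UNC5CL did not pass (-0.53 and 0.26), UNC5A was not tested, and UNC50 did not pass (-0.17).

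Of the 7 class 3 semaphorins, which are secreted, SEMA3B alone changed in the values reported, and it fell in every other fit as well, whereas SEMA3A and SEMA3C passed as higher and SEMA3D and SEMA3F as lower in some of them. SEMA3B (chr3:50267558-50277546, plus strand), a gene often silenced in lung cancer, had the second highest level of all members per kb of exon. It had 6959, 9901 and 7049.8 normalized counts in EV and 2299, 2833 and 2263 in PRL3. The groups were far apart, with a log2 fold change of -1.69 (SE 0.18, adjusted p = 1.7e-05). Its neighbor SEMA3F gave -0.62 (SE 0.25, adjusted p = 0.0583). SEMA3C, with the fifth highest level per kb, had 4780.2, 2953 and 3806 in EV and 4725, 4343 and 5169 in PRL3. These overlapped, and its difference of 0.30 (SE 0.18, adjusted p = 0.191) did not pass, nor did that of SEMA3A, the founding repellent of the class, with 0.44 (SE 0.18, adjusted p = 0.0695). Values for SEMA3A and SEMA3C passed as higher with upper-quartile scaling (0.63 and 0.49) and with library size alone (0.94 and 0.80). SEMA3D, SEMA3E and SEMA3G gave -0.36, 0.12 and 0.14 with overlapping groups.

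The membrane-bound semaphorins held the largest changes in both directions. SEMA5A (chr5:9035033-9546075, minus strand), a transmembrane semaphorin with thrombospondin repeats, had 128, 109 and 175 normalized counts in EV and 894, 880.3 and 747 in PRL3. All PRL3 libraries were far above EV. The log2 fold change of 2.60 (SE 0.23, adjusted p = 9.64e-06), or 6.08-fold, was larger than that of SLIT2 and ranked 76th among protein-coding genes. SEMA4D, a ligand of plexin-B1, rose from 840.3, 1007 and 1236 to 2119.9, 2158 and 1811, a log2 fold change of 0.98 (SE 0.18, adjusted p = 0.000676) without overlap. SEMA6A, which holds the antisense gene SEMA6A-AS1 within it, rose by 0.68 (SE 0.17, adjusted p = 0.0061). In the other direction, SEMA6B (chr19:4542593-4581776, minus strand) had 526, 1252 and 722 in EV and 141, 191 and 131 in PRL3. It fell by 2.43 (SE 0.31, adjusted p = 4.7e-05), or 5.38-fold, with EV replicate B2 well above the other EV libraries and no overlap. SEMA4B and SEMA4C fell, with log2 fold changes of -0.70 and -0.57, the latter not without PRL3 replicate B9 (adjusted p = 0.0699) or B11 (adjusted p = 0.0554). SEMA7A, which is anchored by GPI and had the fourth highest level per kb, had 2972, 3615 and 3507 in EV and 1941, 3056 and 2253 in PRL3. Its groups overlapped, and the fall of 0.48 (SE 0.18, adjusted p = 0.0474) was lost without any one of 4 libraries, EV replicates B2 and B3 and PRL3 replicates B9 and B11 (adjusted p = 0.0831 to 0.223). SEMA6D gave 0.94 (SE 0.39) with all PRL3 libraries above EV but an adjusted p of 0.0715. SEMA4A, SEMA4F, SEMA4G and SEMA6C did not pass (-0.67 to 0.04), and SEMA5B had no count.

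The semaphorin receptors also moved both ways. NRP2 (chr2:205681990-205798133, plus strand), a neuropilin that binds class 3 semaphorins and VEGF-C, had 5104, 5595 and 5795 normalized counts in EV and 12265, 11148 and 9652 in PRL3. It rose by 1.00 (SE 0.15, adjusted p = 0.000169), or 2-fold, without overlap. NRP1 did not pass at -0.22 (SE 0.14), although its PRL3 libraries, 2529.8 to 2931, all lay below its EV libraries, 3134 to 3366. Of the 9 plexins 2 rose and 5 fell. PLXNA2 rose from 1301, 1464 and 1597 to 2366, 2836 and 2371, a log2 fold change of 0.80 (SE 0.16, adjusted p = 0.00126). PLXNA4 rose by 0.97 (SE 0.34, adjusted p = 0.0346) with only 48.7 to 76.4 normalized counts in EV, a call lost without EV replicate B1 or any PRL3 library (adjusted p = 0.0728 to 0.105) and with the span trend removed. PLXNA1, with 7516, 10195 and 8169 in EV and 3959.8, 6069.8 and 4762 in PRL3, fell by 0.81 (SE 0.18, adjusted p = 0.00315). PLXNA3 fell by 0.55 (adjusted p = 0.0162), but not without EV replicate B2, PRL3 replicate B9 or B11 (adjusted p = 0.0512, 0.0749 and 0.0801).

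All 3 B-class plexins fell, and they did so in each of the 16 other fits. PLXNB1 (chr3:48403854-48430086, minus strand), the receptor of SEMA4D, had 1553, 2300.4 and 2059.6 normalized counts in EV and 789.7, 1028 and 894 in PRL3. Its log2 fold change was -1.12 (SE 0.19, adjusted p = 0.000346). PLXNB2 (chr22:50274979-50307646, minus strand), with the third highest level per kb, had 6572, 9300.3 and 7652 in EV and 3195, 4303 and 3587 in PRL3, a fold change of -1.09 (SE 0.17, adjusted p = 0.000266). PLXNB3 (chrX:153764196-153779346, plus strand) went from 1930.3, 3082 and 2231 to 913, 1160.1 and 876, with -1.30 (SE 0.20, adjusted p = 0.000197). In none of these did the groups overlap. PLXNB3 overlaps SRPK3 on the same strand, where reads are set aside as ambiguous. SEMA4D and its receptor PLXNB1 therefore changed in opposite directions. PLXNC1 and PLXND1 gave -0.20 and -0.24 with overlapping groups.

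**Figure D3:**
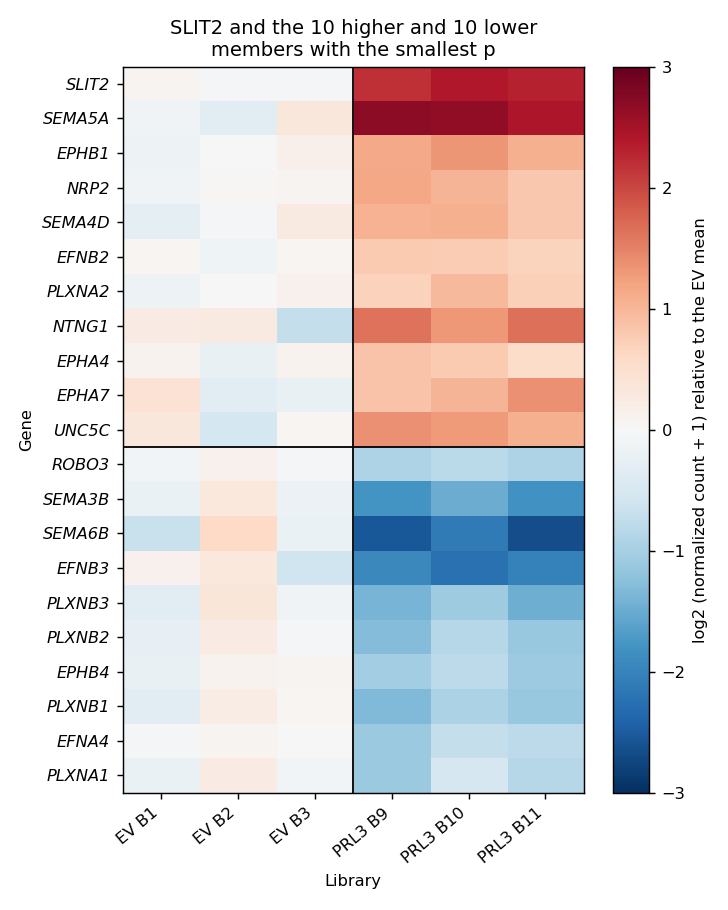
The log2 ratio of each library's normalized count plus 1 to the EV mean plus 1 (color), for SLIT2 and the 10 higher (upper block) and 10 lower members (lower block) with the smallest p whose groups did not overlap. Columns are the EV and PRL3 libraries; the PRL3 columns are of one color within each block by the way these genes were chosen, and SEMA6B and NTNG1 show the widest spread between EV libraries.

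Among the ephrins, 2 rose and 4 fell of 7 tested. The falls of EFNA1, EFNA3 and EFNA4 were not called with library size alone. EFNB2, a ligand of EPHB4 known from arterial endothelium, had 2279.9, 2021 and 2305 normalized counts in EV and 3791, 3730.3 and 3517 in PRL3. It rose by 0.74 (SE 0.14, adjusted p = 0.00105) without overlap, a call lost with all uniquely aligned reads as library size (0.26, adjusted p = 0.212). EFNA5 rose by 0.58 (SE 0.15, adjusted p = 0.00803). EFNB3 (chr17:7705202-7711372, plus strand) had 427, 486 and 257 in EV and 100.9, 82.6 and 95.4 in PRL3. The groups were well apart, with a log2 fold change of -2.07 (SE 0.29, adjusted p = 0.000107), or 4.2-fold lower. EFNA4 fell from 729.5, 805 and 755 to 353, 467 and 446, with -0.85 (SE 0.19, adjusted p = 0.0027). EFNA1 fell by 0.69 (adjusted p = 0.00881), a call lost narrowly without PRL3 replicate B11 (adjusted p = 0.0518). EFNA3 fell by 1.41 from 72.7 ± 13.4 (SD, n = 3), a low level, and the call was lost without EV replicate B2 or any PRL3 library (adjusted p = 0.0599 to 0.0904). These 3 ephrin-A genes lie side by side on chromosome 1, and the exons of EFNA3 and EFNA4 are shared with the readthrough gene, so reads there were set aside as ambiguous. EFNB1 gave -0.15 with overlap, and EFNA2 was not tested.

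EPHA2, an Eph receptor much studied in carcinoma and melanoma, had the highest level of all members, 4463 normalized counts per kb of exon over the 6 libraries, against 904 for SEMA3B in second place. It had 18046, 21892 and 19543 normalized counts in EV and 14971, 20818 and 15621 in PRL3. These overlapped, and its difference of -0.21 (SE 0.17, adjusted p = 0.336) was positive, 0.27, with library size alone. Of the other EPHA genes, EPHA4 rose from 2845, 2264 and 2877 to 4837, 4602 and 3906, a log2 fold change of 0.74 (SE 0.16, adjusted p = 0.00213). EPHA7 rose from 234, 138 and 149 to 315, 352 and 452, with 1.10 (SE 0.27, adjusted p = 0.00552). Neither gene's groups overlapped. No EPHA gene fell in the values reported, while EPHA2 and EPHA3 were called lower with all uniquely aligned reads as library size (-0.68 and -0.72), and EPHA3 also with the span trend removed. EPHA3 gave -0.24 (SE 0.17), EPHA6 gave 0.88 (SE 0.37, adjusted p = 0.0736), EPHA1 and EPHA5 were near the filter, and EPHA8 and EPHA10 were not tested.

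Of the 5 EPHB receptors, EPHB1 rose and EPHB3 and EPHB4 fell. EPHB1 (chr3:134795260-135260467, plus strand) had 849, 950.5 and 1046 normalized counts in EV and 2084, 2375 and 1986 in PRL3. With all PRL3 libraries above EV, its log2 fold change was 1.18 (SE 0.16, adjusted p = 8.37e-05). EPHB4 (chr7:100802565-100827523, minus strand), the main receptor of EFNB2, had 3556, 4491 and 4398 in EV and 2012, 2388 and 1938 in PRL3. It fell by 0.97 (SE 0.16, adjusted p = 0.000314) while its ligand EFNB2 rose, the latter not with all uniquely aligned reads as library size. EPHB3 fell by 0.96 (SE 0.23, adjusted p = 0.00509). EPHB2 gave 0.07 (SE 0.17), and EPHB6, a kinase-inactive receptor at a low level, gave -1.18 (SE 0.88).

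A property that the rule did not use, the length of the gene, differed between the higher and the lower members as a tendency, with exceptions on both sides. The higher members without SLIT2 spanned a median of 222 kb of genome, the lower ones 20.6 kb, and those that did not pass 90.3 kb. Of the 25 members under 30 kb, 1 rose (ROBO4) and 13 fell, where 12% of protein-coding genes of that span were higher and 43.5% lower. Of the 11 members of 30 to 100 kb, 1 rose (EFNB2) and 4 fell, where the protein-coding shares were 14.9% and 27%. Of the 16 members of 100 to 300 kb, 7 rose and 1 fell (NTN1), against 20.3% and 14.8%. Over 300 kb, 6 of 15 members other than SLIT2 rose and 1 fell (UNC5D), against 30.2% and 5.87%. The tendency ran the same way in protein-coding genes as a whole. Across genes, the Spearman correlation of span and log2 fold change was 0.55 over the 67 members and 0.30 over 14443 protein-coding genes; all points share the same 6 libraries and genes are not independent replicates, so no p is given. With the trend of fold change on span taken out over all genes, an alternative added after seeing the data, 13 members were higher and 21 lower: SLIT3, PLXNA4 and EFNA5 were no longer called higher, SEMA7A was no longer called lower, and ROBO1, NRP1 and EPHA3 became lower. ROBO1, ROBO2 and DCC, the 3 longest members at 1171 to 1743 kb, were not among the higher ones.

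**Figure D4:**
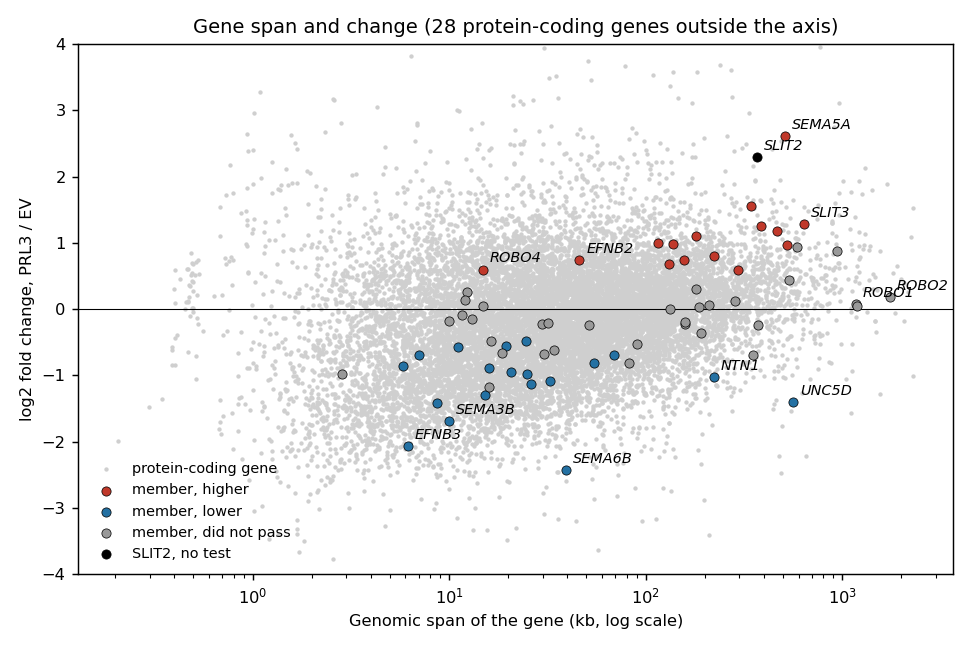
Log2 fold change of PRL3 over EV (vertical axis) against the genomic span of each tested gene in kb (log scale), with protein-coding genes in light gray, of which 28 lie outside the axis, and members colored by call. Red members crowd to the right of 100 kb and blue ones to the left; NTN1 and UNC5D are the long members that fell, and ROBO4 and EFNB2 the short ones that rose.

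**Figure D5:**
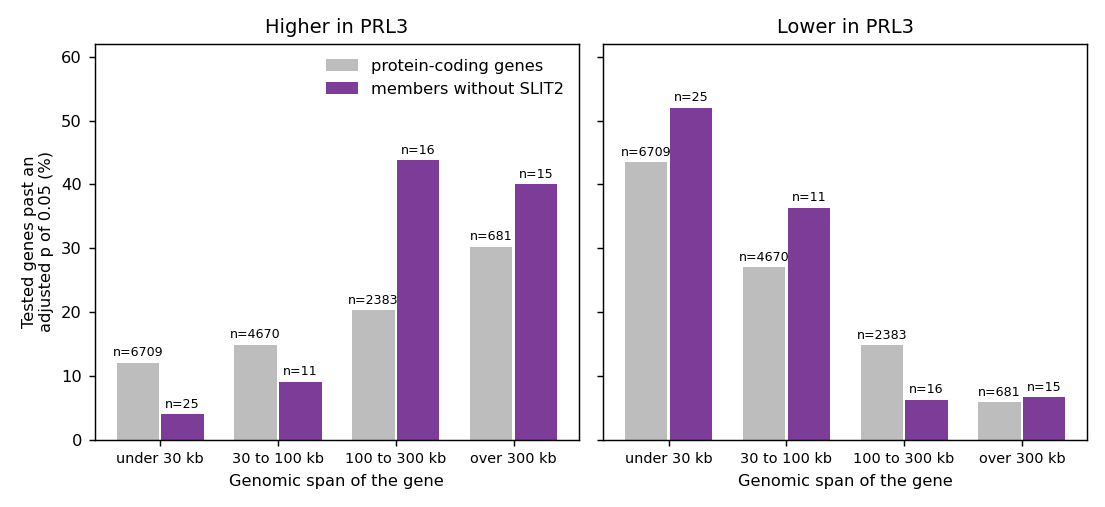
Percent of tested genes called higher (left) or lower (right) in PRL3, by genomic span, for protein-coding genes (gray) and members without SLIT2 (purple), with the number of genes above each bar. Over protein-coding genes the higher share climbs from 12% to 30.2% and the lower share declines from 43.5% to 5.87%; over members the higher share is 4% and 9.09% in the shorter classes and 43.8% and 40% in the longer ones, and the lower share 52%, 36.4%, 6.25% and 6.67%.

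By level, with protein-coding genes split into 3 classes of equal size by mean level over all libraries and SLIT2 left out, 6 members rose and 5 fell of 32 in the lowest class, where 13% of protein-coding genes were higher and 14.7% lower. In the middle class 6 rose and 8 fell of 19, against 18.2% and 31.8%. In the highest class 3 rose and 6 fell of 16, against 14.4% and 48.4%, so over protein-coding genes the lower share climbed with level.

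Other annotated genes lie wholly inside members and count RNA from the same loci. On the same strand there were 29 in 19 members, of which 10 were tested. Of these 4 were higher and none lower, with a median log2 fold change of 1.11. Over all genes tested 20% were higher and 22.7% lower. Among the higher ones, MIR218-1, SLIT2-IT1 and RN7SL398P reached the count filter only through their PRL3 reads. This tilts the counts and the median upward, so they are no support for a shared rise. Without the pair inside SLIT2, the locus chosen for its rise, 2 of 8 were higher, RN7SL398P still among them, and the median was 0.62. ENSG00000274204 inside EFNB2 rose by 2.02 (SE 0.37, adjusted p = 0.000676) and RN7SL398P inside NRP1 by 2.58 (SE 0.90, adjusted p = 0.0331), the latter with 20 reads over the EV and 140 over the PRL3 libraries. The NRP1 exons themselves did not pass (-0.22). In ROBO1, RN7SL751P gave 0.47 (SE 0.47), and in ROBO2, CAP1P1 gave -1.98 (SE 0.87, adjusted p = 0.0833). RN7SL genes are near-identical copies, so their counts are uncertain.

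Other genes of these pathways, called effectors here, were read from a list of 103 symbols, of which 96 were tested. The list was set out from pathway knowledge, with earlier results of these data known. It holds proteins that carry the signal inward and also some ligands and partners at the cell surface. Of the tested effectors 16 rose (16.7%) and 29 fell (30.2%), close to the shares of all protein-coding genes, 15.2% and 31.6%. Of 26 slit and ROBO effectors 5 rose and 11 fell. The 3 SRGAP genes, whose products turn off small GTPases at the ROBO tail, all rose, with log2 fold changes of 0.63 (SRGAP1), 0.70 (SRGAP2) and 1.04 (SRGAP3, SE 0.17, adjusted p = 0.000342), although SRGAP1 and SRGAP2 were not called with all uniquely aligned reads as library size or with the span trend removed. ABL2, a tyrosine kinase, rose by 1.16 (SE 0.16, adjusted p = 7.15e-05). The small GTPase genes RAC1, CDC42 and RHOA were called lower in every fit. RAC1 fell from 12688 ± 1611 to 4892 ± 129 normalized counts (SD, n = 3), by 1.37 (SE 0.15, adjusted p = 1.97e-05), and CDC42 fell by 1.00. SRGAP1, SRGAP2 and CDC42 are named with their values known. RHOA, listed with the ephrin effectors, fell by 1.69 (SE 0.16, adjusted p = 1.05e-05). Of 17 netrin effectors 6 rose and 3 fell, led by RGMB, a neogenin ligand, at 1.18 (SE 0.16, adjusted p = 7.06e-05). Of 28 semaphorin effectors 1 rose and 10 fell, with GIPC1, an adaptor that binds neuropilin-1, at -1.81 (SE 0.18, adjusted p = 1.45e-05). Of 26 ephrin effectors 4 rose and 5 fell. By span, 1 effector was higher and 10 lower of 15 under 30 kb, 1 and 12 of 24 from 30 to 100 kb, 6 and 7 of 44 from 100 to 300 kb, and 8 and 0 of 13 over 300 kb. Over protein-coding genes of these spans, 12%, 14.9%, 20.3% and 30.2% were higher and 43.5%, 27%, 14.8% and 5.87% lower.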

How the data were processed

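Per the labels and the study's methods, the authors checked reads with FastQC 0.11.3, aligned them to GRCh38 with STAR 2.5.1b, counted them with HTSeq 0.6.1 (reverse strand, Ensembl 91), and deposited raw counts per gene. Counts that name no gene were left out of library sizes (66.3% of uniquely aligned reads on no exon of their strand in PRL3 and 33.3% in EV). Gene positions came from GENCODE 44, and 57532 of 58243 identifiers matched. PRL3 was compared with EV in R 4.3.3 with edgeR 4.0.16 (TMM, filterByExpr, quasi-likelihood test, Benjamini-Hochberg threshold 0.05), tested on simulated data first. Each SE is the size of the log2 fold change divided by the square root of that test's F statistic. The alternatives were 5 other scalings or gene sets, DESeq2 1.42.0, limma-voom (limma 3.58.1), 2 count filters, a threshold of 0.01, leaving out each library and, added after seeing the data, removing the trend of fold change with gene span. No library repeated another within sampling noise (lowest mean chi-square per gene of a pair, 24.7). The members and lists were chosen with earlier results of these data known. Named with every library's values were the slits and ROBO genes, up to 10 higher and 10 lower members with the smallest p and no overlap, and the 5 with most signal per kb; single others were named to complete a role, with their values known.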

Additional observations from a re-analysis of the deposited data

Results flagged for a closer look

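Signal was present outside the exon counts used above. The uniquely aligned reads on no annotated exon of their strand were 66.3% ± 3.18 in PRL3 and 33.3% ± 6.75 in EV (SD over 3 libraries each), with every PRL3 library above every EV library. As counting was by strand, these also hold reads on the opposite strand of an exon. Which of these reads lie in the introns of guidance genes cannot be read from counts per gene.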

How the results depend on the processing

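No paired analysis was possible because EV and PRL3 carry different replicate numbers. With library size alone, 9514 genes were higher and 3078 lower, the lower members numbered 8, the effectors 46 higher and 19 lower, the members' median was 0.27, and EPHA2 (0.27) and SEMA7A (0.0025) changed sign. With all uniquely aligned reads as library size the values were 1952 and 8473 genes, 6 and 30 members, 4 and 51 effectors and a median of -0.67, and SLIT1 (-0.37), ROBO1 (-0.40), ROBO2 (-0.27) and SEMA3C (-0.18) changed sign. These follow from the scale itself, and the members' median stayed below that of all genes by 0.33 and 0.31, against 0.32 in the values reported. Most of this distance was shared by protein-coding genes as a whole. Their median was 0.34 with library size alone, where the members' was 0.27. With all uniquely aligned reads the 2 medians were -0.63 and -0.67, and in the values reported -0.15 and -0.20. The members' median was -0.031 with upper-quartile scaling and -0.029 with protein-coding genes only. A threshold of 0.01 left 2719 higher genes and 8 higher effectors. With the span trend removed, 4 effectors were higher, the median was -0.40, and SLIT1 (-0.22), ROBO1 (-0.56) and ROBO2 (-0.51) changed sign. Leaving out 1 library gave 9 to 17 higher effectors (9 without PRL3 replicate B9, 10 without B10), 14 to 17 higher and 14 to 22 lower members, a median of -0.26 to -0.17, 3200 to 5940 higher genes, and SLIT1 from -0.52 to 1.76. Of 447 values of the 28 named members with a test, 407 kept direction and side of the threshold, 21 lost and 6 gained the call, and 13 changed sign. Members with few reads, such as SLIT1 and EPHB6, can hide changes at this depth.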

Other observations

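On the strand opposite to their host, 41 annotated genes lay inside 25 members, and 8 were tested. SEMA6A-AS1 rose with its host, from 130.3, 186 and 241 normalized counts in EV to 361, 359 and 353 in PRL3 (log2 fold change 0.94, SE 0.26, adjusted p = 0.011). ENSG00000236662 rose inside SEMA4G by 1.11 (SE 0.29, adjusted p = 0.008), although SEMA4G itself gave -0.48 and did not pass. The processed pseudogenes RPL6P10 inside EPHA5 and RPL7AP62 inside SEMA6D fell, with log2 fold changes of -2.54 and -3.81; both resemble a ribosomal protein gene elsewhere in the genome, so the source of their reads is uncertain. The names in this paragraph follow the tested genes that passed the threshold and were chosen after their values were seen.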
